A study of Mus musculus with 15 samples.

Results

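The 10 genes described here are genes of iron handling and ferroptosis, measured by bulk RNA-seq in cultured mouse RPE cells (mRPE) and in mouse RPE/choroid. They were chosen by gene symbol: *Tfrc* and *Slc11a2* (iron uptake), *Fth1*, *Ftl1* and *Ncoa4* (storage and its release), *Slc40a1* and *Cp* (export), *Aco1* and *Ireb2* (sensing) and *Acsl4* (ferroptosis). All 10 members were found among the 20910 genes of the mRPE count table and the 25038 genes of the RPE/choroid count table, and all 10 passed the filter on low counts in both.

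Cells take up iron bound to transferrin through the transferrin receptor, move it out of the endosome, store what is not used inside ferritin, and release it through ferroportin. A pair of iron regulatory proteins binds a short hairpin, the iron-responsive element, in the untranslated regions of several of these mRNAs when iron is low, which slows translation when the hairpin lies before the coding region and stabilises the mRNA when it lies after it. Ferroptosis is a form of cell death driven by iron-dependent peroxidation of membrane lipids, and the RPE, which digests lipid-rich photoreceptor outer segments next to a blood supply, is a tissue in which both iron load and lipid peroxidation have been studied.

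The mRPE cells had been isolated from pooled C57BL/6J mice and immortalised with lentiviral HPV E6/E7. *Prom1* was deleted in Cas9-expressing mRPE cells with a guide to exon 5, and 3 libraries of the clone KO22 and 2 of the clone KO26 were compared with 4 libraries of WT cells, so that each KO group is a single clone. The libraries of KO26 are those that the study set aside as outliers. The RPE/choroid libraries were 3 WT and 3 labelled *Prom1*-KO. The knockout model combined floxed *Prom1* alleles (*Prom1* fl/fl) with RPE65-Cre and tamoxifen given by gavage. The labels give neither the age of the RPE/choroid mice nor whether the WT mice carried Cre or received tamoxifen. The number that opens each library name was taken as the sequencing batch: 1 library each of WT, KO22 and KO26 was in batch 8995 (replicate 1 of each group) and the other mRPE libraries were in batch 9262. The labels do not say that replicates were separate cultures or animals, so the p-values measure only the spread between these samples.

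Library totals ranged from 8076188 to 27537863 counts in mRPE and from 48154444 to 61766179 in RPE/choroid. Levels are given as CPM, the counts scaled to the library total after TMM normalization. In RPE/choroid 3 ribosomal RNA genes held 56.8% to 65.2% of the counts in 5 libraries and 82.2% in replicate 3 labelled *Prom1*-KO, which stands apart. *Prom1* is not analysed here in mRPE. In RPE/choroid it was measured at 44.5 ± 7.83 CPM in the libraries labelled *Prom1*-KO and 50.5 ± 2.47 CPM in WT (SD, n = 3 each, adjusted p = 0.824 in edgeR). The test called no difference. Counts over the whole gene in bulk tissue cannot show whether the floxed part was lost in RPE cells. The label is used below as given. Of 8 RPE markers, 3 passed the filter in mRPE, with a summed level of 8.78 to 10.7 CPM in WT, and *Rpe65*, *Rlbp1*, *Lrat*, *Ttr* and *Rgr* did not.

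The iron-responsive hairpins are shown because *Tfrc*, *Slc40a1* and the ferritin subunits carry the form of the element that is most alike between genes, on different sides of the coding region. The untranslated regions of the 10 genes (GRCm39, GENCODE) were searched on the transcribed strand for the loop CAGTGN with a last base other than G, between arms of 5 bases that pair (G-T pairs allowed), with an unpaired C before the first arm. The hairpin occurred once before the coding region of *Fth1*, *Ftl1* and *Slc40a1* and 4 times after that of *Tfrc*. The search found it in the 5′ untranslated region of 36 of 21069 genes (0.171%) and in the 3′ untranslated region of 185 of 21124 genes (0.876%). No match in the other 6 members says only that these letters are not there, and *Slc11a2*, known for an element in a 3′ untranslated region, is among them, so the search does not list all members that are bound. Each hairpin is printed with its flanks as DNA, 5′ to 3′ on the strand of the gene, with the loop in capitals.
Fth1 5′ untranslated region: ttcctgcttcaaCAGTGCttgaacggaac
Ftl1 5′ untranslated region: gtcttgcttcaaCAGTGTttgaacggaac
Slc40a1 5′ untranslated region: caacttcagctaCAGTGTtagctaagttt
Tfrc 3′ untranslated region, the first: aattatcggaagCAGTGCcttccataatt
Tfrc 3′ untranslated region, the second: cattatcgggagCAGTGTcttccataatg
Tfrc 3′ untranslated region, the third: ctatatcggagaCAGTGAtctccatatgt
Tfrc 3′ untranslated region, the fourth: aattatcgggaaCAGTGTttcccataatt

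Without their flanks these hairpins lie in exons at chr19:9960102-9960118 on the plus strand (*Fth1*), chr7:45109209-45109225 on the minus strand (*Ftl1*), chr1:45964631-45964647 on the minus strand (*Slc40a1*) and, for *Tfrc* on the plus strand, chr16:32450043-32450059, chr16:32450422-32450438, chr16:32450487-32450503 and chr16:32450534-32450550. *Fth1* and *Ftl1* share the same paired arms, and the 4 copies of *Tfrc* differ from each other in loop or arm.

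Levels were compared between genes as CPM per kb of the canonical transcript. In WT mRPE the ferritin subunits stood first, with *Fth1* at 1670 ± 75.9 and *Ftl1* at 554 ± 171 CPM per kb, followed by *Cp* at 269 ± 91.1 (SD, n = 4). *Slc11a2* at 19.0 ± 2.61, *Ireb2* at 19.0 ± 4.69 and *Acsl4* at 16.3 ± 1.36 overlapped from one to the next. *Ncoa4* at 11.2 ± 0.596 and *Aco1* at 9.99 ± 0.761 overlapped in turn, as did *Slc40a1* at 3.17 ± 0.353 and *Tfrc* at 2.76 ± 0.628, the lowest. The transferrin receptor and ferroportin thus had the lowest levels per length, and the ferritin subunits the highest.

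In WT RPE/choroid the order began in the same way, with *Fth1* at 445 ± 69.4, *Ftl1* at 94.3 ± 33.1, *Cp* at 10.8 ± 0.414 and *Slc11a2* at 7.32 ± 0.544 CPM per kb (SD, n = 3), none of which overlapped the next. *Ireb2*, *Acsl4*, *Ncoa4* and *Aco1* lay between 2.15 and 3.06, and *Tfrc* at 1.36 ± 0.109 and *Slc40a1* at 1.03 ± 0.356 were again lowest and overlapped. The tables were made separately, so levels are ordered within each and were not tested between them.

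**Figure D1:**
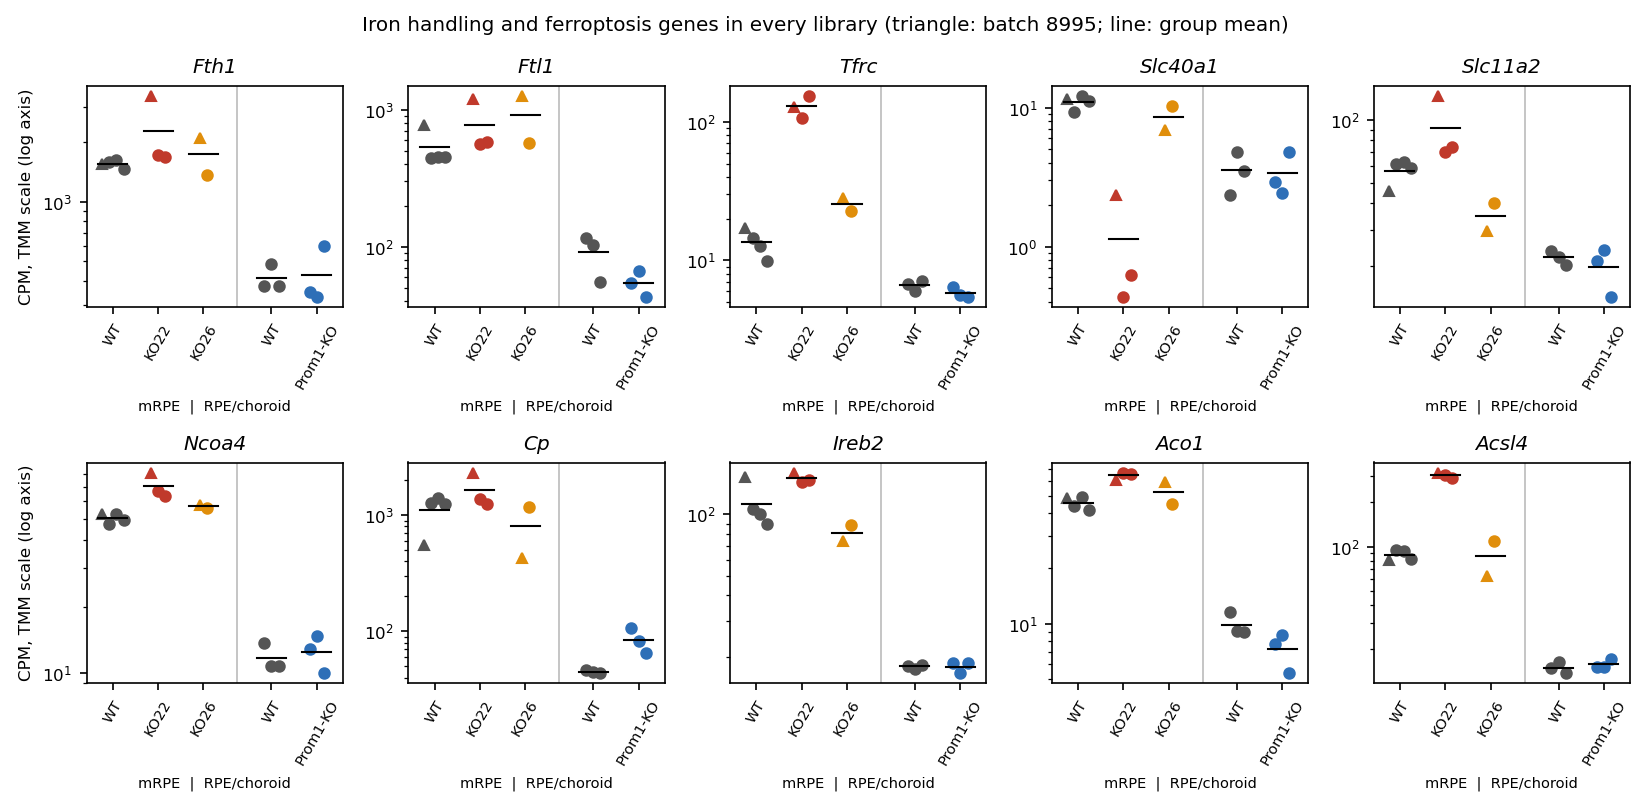
Level of each of the 10 genes in every library, as CPM on the TMM scale (log axis, with its own range for each gene), for WT, KO22 and KO26 mRPE and, right of the grey line, WT RPE/choroid and RPE/choroid labelled *Prom1*-KO; triangles are batch 8995 and bars are group means. *Tfrc* and *Acsl4* stand above all WT and KO26 libraries in the 3 KO22 libraries, and *Slc40a1* stands below them.

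In KO22, the transferrin receptor *Tfrc* rose and the iron exporter *Slc40a1* fell, and *Acsl4*, which charges polyunsaturated fatty acids for membrane lipids, rose. These 3 of 10 members (2 higher, 1 lower) passed both limits against WT, an adjusted p under 0.05 in edgeR's quasi-likelihood test with Benjamini-Hochberg adjustment and an absolute log2 fold change over 1.2. Over all 20455 genes tested 25.2% passed both limits (11.4% higher and 13.8% lower), so the members' share is near that of all genes. By the adjusted p alone 8 members were called (7 higher, 1 lower), against 53% of all genes (26.9% higher and 26.1% lower). The KO22 and WT libraries did not overlap for 7 of 10 members, against 50.1% of all genes.

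*Tfrc* (chr16:32427556-32451612, plus strand), the receptor that takes up iron-loaded transferrin, was measured at 17.1, 14.5, 12.6 and 9.83 CPM in the 4 WT libraries and at 129, 106 and 154 CPM in the 3 KO22 libraries. Every KO22 library was several times above the highest WT library. The change was 9.51-fold, a log2 fold change of 3.25 (SE 0.19, adjusted p = 1.8e-06), and it was 2.88 within batch 8995 and 3.34 within batch 9262, as differences of log2(CPM + 0.5), the scale of all within-batch values given below unless stated. Among 13571 protein-coding genes ordered by CPM per kb, *Tfrc* stood at the percentile 35.1 in WT and 85.1 in KO22.

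*Slc11a2* (chr15:100285776-100322953, minus strand), which carries ferrous iron out of the endosome, was measured at 45.7, 61.7, 62.7 and 59.2 CPM in WT and at 130, 70.2 and 74.6 CPM in KO22. All KO22 libraries lay above WT, with replicate 1 of KO22, the library of batch 8995, far above its group and replicate 1 of WT below its own. The log2 fold change was 0.62 (SE 0.22, adjusted p = 0.0372), under the fold limit, and it was 1.5 within batch 8995 and 0.24 within batch 9262.

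The ferritin heavy chain *Fth1* (chr19:9957911-9962462, plus strand), the subunit with ferroxidase activity, was measured at 1550, 1580, 1620 and 1460 CPM in WT and at 3420, 1730 and 1680 CPM in KO22. The KO22 libraries lay above WT, but only replicate 1 was far above. The opposite-strand model Gm36913, not analysed here, shares 1462 exonic bases with *Fth1*. The log2 fold change of 0.43 (SE 0.19) did not pass the test (adjusted p = 0.0891), with 1.14 within batch 8995 and 0.13 within batch 9262.

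The ferritin light chain *Ftl1* (chr7:45107367-45109308, minus strand), which helps iron to form a core, was measured at 785, 448, 457 and 456 CPM in WT and at 1200, 567 and 583 CPM in KO22. The groups overlapped because replicate 1 of both was high. With the batch as a term, *Ftl1* was called by the adjusted p alone (log2 fold change 0.42, SE 0.11, adjusted p = 0.01). A gene model on the opposite strand, Gm10252, shares 355 exonic bases with *Ftl1* and was listed at 0.88 to 1 times the counts of *Ftl1* in mRPE and 0.629 to 0.7 times in RPE/choroid, so the reads of this pair cannot be told apart. The pseudogene *Ftl1-ps1* was listed at 1.16% to 1.61% of the *Ftl1* counts in mRPE.

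*Ncoa4* (chr14:31881822-31902234, plus strand), the receptor that delivers ferritin to autophagy, was measured at 52.7, 47.2, 52.5 and 49.4 CPM in WT and at 81, 66.6 and 63.6 CPM in KO22, with no overlap. Its log2 fold change was 0.46 (SE 0.1, adjusted p = 0.00491), with 0.62 within batch 8995 and 0.39 within batch 9262. No member of storage and its release passed both limits, and *Ncoa4* and *Ftl1* were called by the adjusted p alone, as were 26.9% of all genes in the same direction.

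*Slc40a1* (chr1:45947211-45965683, minus strand) encodes ferroportin, the only known cellular exporter of iron. It was measured at 11.5, 9.25, 12.1 and 11.1 CPM in WT, from 123 to 290 counts a library, and at 2.33, 0.434 and 0.621 CPM in KO22, from 27, 9 and 8 counts. All KO22 libraries lay below WT, and replicate 1 stood above the other KO22 libraries. The change was 11.7-fold lower, a log2 fold change of -3.55 (SE 0.4, adjusted p = 7.8e-05), and it was -2.3 within batch 8995 and -4.36 within batch 9262 as log2 ratios of mean CPM. With the pseudocount of 0.5 CPM, which is about the KO22 level itself in batch 9262, these were -2.08 and -3.46. The percentile of its level per kb was 37.7 in WT and 11.8 in KO22.

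*Cp* (chr3:20011090-20063930, plus strand) encodes ceruloplasmin, the copper ferroxidase that works with ferroportin. It was measured at 559, 1270, 1400 and 1240 CPM in WT and at 2330, 1390 and 1240 CPM in KO22. The groups overlapped, with the extremes of both in replicate 1, and the log2 fold change of 0.61 (SE 0.34) did not pass the test (adjusted p = 0.166). It was 2.06 within batch 8995 and 0.02 within batch 9262.

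The iron sensors had small differences. *Aco1* (chr4:40142998-40199010, plus strand), an aconitase that becomes an iron regulatory protein without its iron-sulfur cluster, was measured at 48.2, 43.9, 49.3 and 41.9 CPM in WT and at 61.1, 66.8 and 66.0 CPM in KO22, with no overlap (log2 fold change 0.5, SE 0.11, adjusted p = 0.0038). *Ireb2* (chr9:54770970-54820011, plus strand), the other iron regulatory protein, was measured at 152, 106, 100 and 89.1 CPM in WT and at 160, 144 and 147 CPM in KO22. The *Ireb2* groups overlapped through replicate 1 of WT (log2 fold change 0.42, SE 0.12, adjusted p = 0.0174).

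*Acsl4* (chrX:141100840-141173789, minus strand), whose product makes membranes more prone to ferroptosis, was measured at 81.1, 95.4, 92.6 and 81.9 CPM in WT and at 319, 305 and 294 CPM in KO22. The KO22 libraries were close to each other and did not overlap WT. The change was 3.5-fold, a log2 fold change of 1.81 (SE 0.11, adjusted p = 2.54e-06), with 1.97 within batch 8995 and 1.73 within batch 9262.

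**Figure D2:**
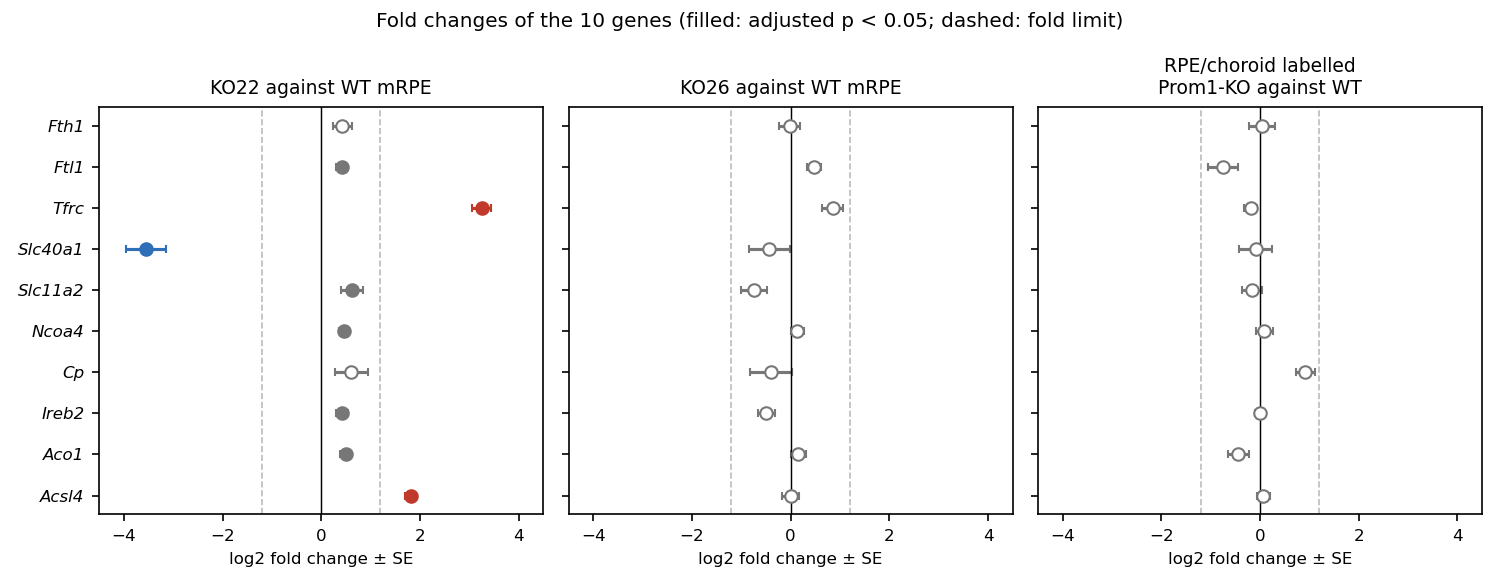
Log2 fold change with its standard error (edgeR) for each of the 10 genes in KO22 against WT mRPE (3 and 4 libraries), KO26 against WT mRPE (2 and 4 libraries) and RPE/choroid labelled *Prom1*-KO against WT (3 and 3 libraries); filled points have an adjusted p under 0.05, dashed lines mark the fold limit, and red and blue points pass both limits. *Tfrc* at 3.25, *Acsl4* at 1.81 and *Slc40a1* at -3.55 in KO22 are the points past both limits.

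The size of several differences was not the same in the libraries of both batches. All 10 members had the same sign in both batches in KO22, but a term for batch by genotype, chosen after seeing the data, was called at an adjusted p under 0.05 for 5 of them, against 26.6% of all genes. The KO22 difference was larger in batch 8995 than in batch 9262 by 1.02 for *Fth1* (adjusted p = 0.00122), 1.28 for *Slc11a2* (8.03e-06) and 2.05 for *Cp* (7.16e-07), on the log2 scale. For *Slc40a1* the term was 2.09 (0.00319), a smaller fall in batch 8995, and for *Ireb2* it was -0.48 (0.046). Batch 8995 holds 1 library per group, so the term rests on a single WT and a single KO22 library, which are assumed to vary like the libraries of batch 9262, and a batch and a library that stands apart cannot be told apart. For *Tfrc* the term of -0.48 and for *Acsl4* of 0.24 were not called.

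**Figure D3:**
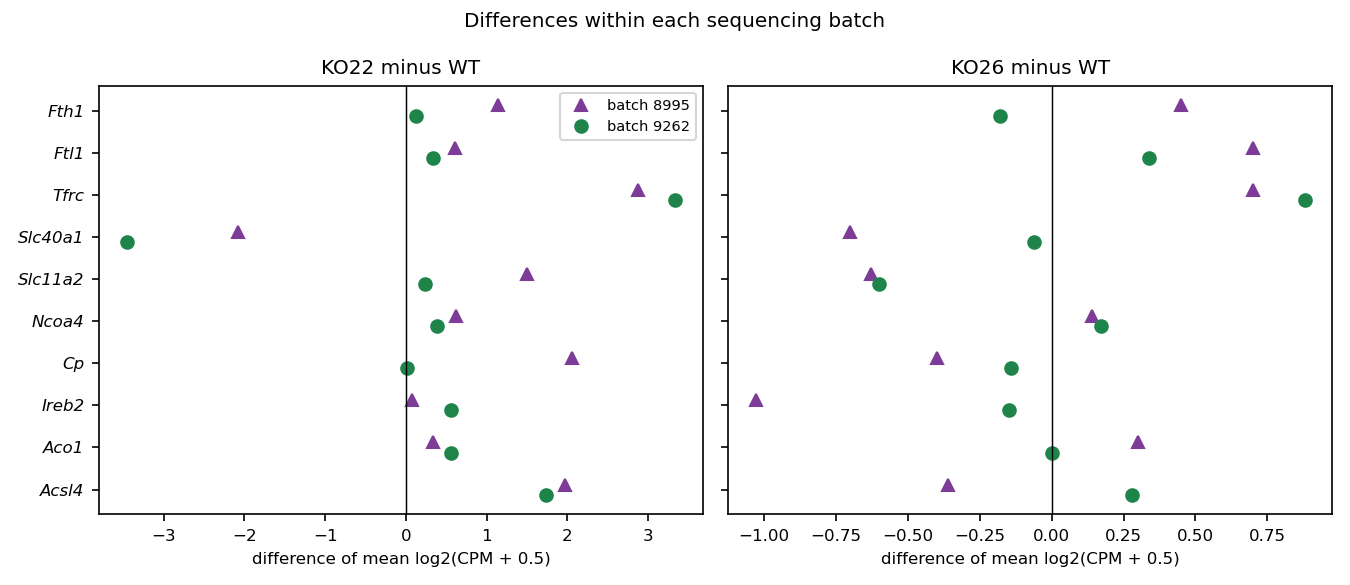
Difference of the mean log2(CPM + 0.5) between KO22 and WT (left) and between KO26 and WT (right) for each of the 10 genes, computed within batch 8995 (triangles, 1 library a group) and within batch 9262 (circles, 3 WT, 2 KO22 and 1 KO26 library); the horizontal scales differ. *Cp* in KO22 lies at 2.06 in one batch and 0.02 in the other, the pseudocount draws *Slc40a1* toward 0, and *Tfrc* and *Acsl4* stay over 1.7 in both.

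Some markers of other cell types differed between KO22 and WT too. The summed level of the 5 fibroblast or stroma markers that passed the filter was 12800 to 17500 CPM in WT and 5560 to 8670 CPM in KO22. Of these markers 3 were called lower (*Col1a1* 4120 ± 940 against 1530 ± 473 CPM) and none higher. Their log2 fold changes ran from -1.74 to 0.61 (median -1.5) with 1 positive, and *Dcn* was higher in the mean (829 ± 283 against 1190 ± 282 CPM). The summed level of the 6 endothelial markers that passed the filter was 154 to 238 CPM in WT and 4.89 to 6.75 CPM in KO22, which is nearly all *Kdr* (177 ± 38.7 against 2.21 ± 1.71 CPM). The endothelial list as a whole did not move one way, with 2 markers called lower, 1 higher and a median log2 fold change of 0.09. Of 8 macrophage markers 3 passed the filter, and their sum was 7.68 to 9.33 CPM in WT and 11.6 to 14.8 CPM in KO22. Their part in the members' results was not tested.

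In KO26, no member passed either limit against WT, over 20737 genes of which 1.92% passed both (1.21% higher and 0.719% lower) and 3.5% passed the adjusted p alone (2.36% higher and 1.13% lower). At an unadjusted p under 0.05 there were 4 members, against 20.1% of all genes, and DESeq2 called none past both limits. The groups did not overlap for 4 of 10 members, against 24.7% of all genes. *Tfrc*, at 28.2 and 22.8 CPM, lay above every WT library, with a log2 fold change of 0.85 (95% interval 0.39 to 1.31, adjusted p = 0.0523), and the DESeq2 value was 0.84 (adjusted p = 0.0133), under the fold limit. *Slc11a2*, at 29.4 and 40.2 CPM, lay below WT (log2 fold change -0.74, SE 0.27, adjusted p = 0.167), as did *Ireb2*, at 74.2 and 88.5 CPM (-0.49, SE 0.18, adjusted p = 0.175). Neither passed here, but with WT and KO26 libraries alone *Slc11a2* had an adjusted p of 0.00149 (-0.64) and *Ireb2* of 0.0445 (-0.53), and without replicate 1 of KO22 0.000822 (-0.62) and 0.0348 (-0.51), all under the fold limit. *Slc40a1*, at 6.91 and 10.3 CPM, overlapped WT (-0.43, 95% interval -1.36 to 0.49). *Acsl4*, at 62.8 and 109 CPM on either side of WT, had a log2 fold change of 0 (95% interval -0.4 to 0.4).

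*Fth1* was at 2110 and 1370 CPM in KO26, *Ftl1* at 1270 and 574, *Cp* at 424 and 1180, *Ncoa4* at 58 and 55.9 and *Aco1* at 59.5 and 45.0, and none of these 5 passed edgeR's test, while DESeq2 gave *Ftl1* a log2 fold change of 0.46 (adjusted p = 0.0131), under the fold limit. For *Fth1*, *Ftl1* and *Aco1* the higher value, and for *Cp* the lower, was that of batch 8995. Within batches, 7 of the 10 members kept their sign in KO26.

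The clones share their WT controls, so they were compared with each other directly. KO22 was above KO26 for *Tfrc* (log2 difference 2.4, SE 0.23, adjusted p = 4.26e-05), *Acsl4* (1.83, SE 0.2, adjusted p = 8.89e-05) and *Slc11a2* (1.4, SE 0.29, adjusted p = 0.00369), and below it for *Slc40a1* (-3.02, SE 0.49, adjusted p = 0.00103). These are 4 of 10 members past both limits, 3 higher and 1 lower, against 18.3% of all genes (7.56% higher and 10.7% lower). By the adjusted p alone *Ireb2* was also called (0.91, adjusted p = 0.00483), which makes 5 of 10 members against 34.4% of all genes (16.3% higher and 18.1% lower). The *Slc11a2* call passed the fold limit in 7 of 9 fits with 1 library left out, and was lost without replicate 1 of KO22 (0.87) or replicate 1 of KO26 (1.08, adjusted p = 0.0486). *Cp* did not pass (1.15, adjusted p = 0.0734), but was called without replicate 3 of KO22 (1.49) or without replicate 2 of KO26 (1.91). The libraries did not overlap for 8 of the 10 members, against 47.9% of all genes.

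A ratio within a library does not depend on its scaling. The counts of *Tfrc* divided by those of *Slc40a1*, the importer over the exporter, were 1.49, 1.56, 1.04 and 0.884 in WT, 55.2, 244 and 248 in KO22 and 4.07 and 2.21 in KO26. Both clones lay above WT without overlap, and every KO22 library lay above both KO26 libraries. *Tfrc* and *Slc40a1* were the members with the largest rise and fall in KO22, so the ratio is not separate evidence there. In KO26 edgeR called neither gene, and the ratio was not tested. In RPE/choroid the ratio was 2.86, 1.26 and 2.03 in WT and 2.19, 2.34 and 1.14 in the libraries labelled *Prom1*-KO, which overlapped. The counts of *Fth1* over *Ftl1* were 1.97 to 3.55 in WT mRPE, 2.84 to 3.04 in KO22, and 1.66 and 2.38 in KO26, and both clones overlapped WT when the batches were pooled. Within batches KO26 was below every WT library, at 1.66 against 1.97 in batch 8995 and 2.38 against 3.2 to 3.55 in batch 9262, and this was not tested. In KO22 it was 2.84 against 1.97 in batch 8995 and 2.89 to 3.04 in batch 9262, above WT in one batch and below it in the other. The *Ftl1* reads in this ratio cannot be told apart from those of Gm10252, and each batch holds 1 KO26 library.

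In RPE/choroid no member passed either limit between the libraries labelled *Prom1*-KO and WT, where 0.189% of 24926 genes passed both and 0.193% passed the adjusted p alone, all of them lower. At an unadjusted p under 0.05 there were 2 members, *Cp* and *Ftl1*, against 8.3% of all genes, and DESeq2 called none past both limits. The groups did not overlap for 2 of 10 members, *Cp* and *Aco1*, against 14.6% of all genes. The RPE markers moved with the label: all 8 were lower, 4 of them called, and their summed level was 253 to 408 CPM against 1610 to 2490 CPM in WT. *Rpe65*, the isomerase of the visual cycle, was measured at 3.86 ± 2.48 against 257 ± 46.2 CPM (adjusted p = 0.0191). The part of this loss in the members' values was not tested, and in bulk tissue fewer cells of a type and less RNA per cell cannot be told apart. The summed macrophage markers were 95.4 to 111 CPM in the libraries labelled *Prom1*-KO and 104 to 129 CPM in WT, and the erythroid markers 12.3 to 113 and 36.4 to 68.2 CPM. All 8 endothelial markers had negative log2 fold changes (-1.69 to -0.49, none called), with sums of 52.5 to 78.1 CPM in the libraries labelled *Prom1*-KO and 84.4 to 176 CPM in WT that did not overlap. Of 4 Mueller glia markers 3 had positive log2 fold changes (median 0.91, none called), with sums of 201 to 343 and 174 to 313 CPM. The part of these markers in the members' values was not tested either.

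*Cp* was measured at 46.8, 44.6 and 43.4 CPM in WT RPE/choroid and at 107, 82.6 and 64.5 CPM in the libraries labelled *Prom1*-KO. All of these lay above WT, with a log2 fold change of 0.92 (SE 0.19, unadjusted p = 0.00187) that edgeR did not call (adjusted p = 0.194). DESeq2 gave 0.91 with an adjusted p of 0.00355, under the fold limit as well. *Ftl1* was measured at 116, 102 and 55.2 CPM in WT and at 53.6, 66.7 and 42.7 CPM, with an overlap (log2 fold change -0.75, SE 0.3, adjusted p = 0.564). *Aco1* was measured at 11.5, 9.10 and 8.99 CPM in WT and at 7.69, 8.68 and 5.34 CPM, lower without overlap (-0.44, SE 0.21, adjusted p = 0.65).

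The genes past both limits in KO22 did not pass the test in the tissue, where their groups overlapped. *Tfrc* was measured at 5.83 ± 0.497 CPM in the libraries labelled *Prom1*-KO and 6.63 ± 0.536 CPM in WT, and *Slc40a1* at 3.37 ± 1.24 and 3.56 ± 1.23 CPM (SD, n = 3 each). *Acsl4* was measured at 15.8 ± 1.11 and 15 ± 1.35 CPM. The 95% intervals of the log2 fold change were -0.51 to 0.14 for *Tfrc*, -0.88 to 0.71 for *Slc40a1* and -0.23 to 0.37 for *Acsl4*. *Fth1*, *Slc11a2*, *Ncoa4* and *Ireb2* overlapped too, with log2 fold changes from -0.16 to 0.09.

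The members were then set among 8 lists of iron and ferroptosis genes, with 128 genes in all. In KO22, 118 were tested and 27 (22.9%) passed both limits, 19 higher and 8 lower, against 25.2% of all genes, with a median log2 fold change of 0.4 against -0.03 over all genes tested. By the adjusted p alone 61% of the list genes were called, against 53% of all genes. Without the 10 members, 17 of 108 were higher and 7 lower, with a median log2 fold change of 0.28. The lists were chosen with earlier results of these data known, so their shares and medians are not independent of these data.

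**Figure D4:**
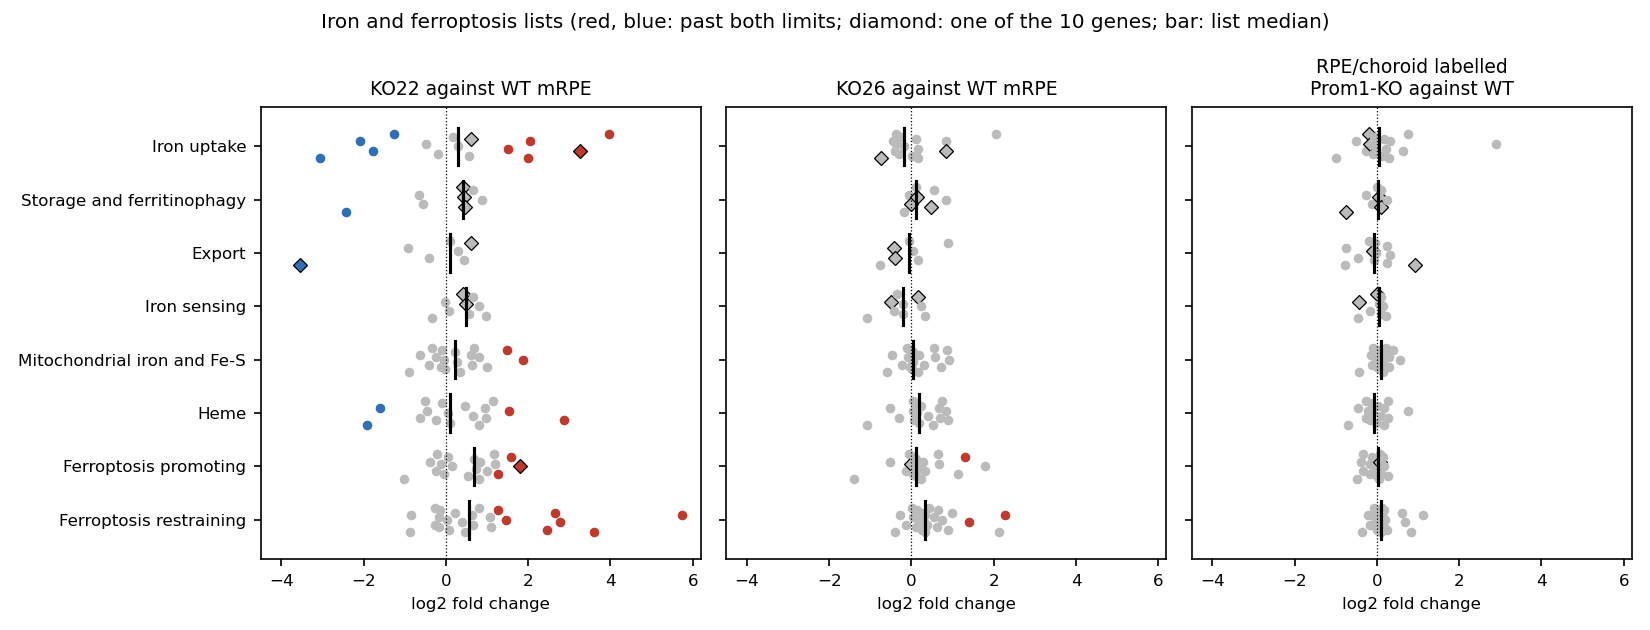
Log2 fold change (edgeR) of every tested gene of the 8 lists in KO22 against WT mRPE, KO26 against WT mRPE and RPE/choroid labelled *Prom1*-KO against WT; each point is a gene, red and blue points pass both limits, diamonds are the 10 genes and bars are list medians. Colour is found in both directions among the uptake genes of KO22, upward only among its ferroptosis lists, and nowhere in RPE/choroid.

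Of all genes tested in KO22, 11.4% rose and 13.8% fell past both limits, the shares to set beside each list below. Of 15 uptake genes tested in KO22, 5 rose and 4 fell past both limits. Besides *Tfrc*, *Steap1*, a metalloreductase family member, rose (log2 fold change 1.52, adjusted p = 6.64e-05), as did *Slc39a14*, a transporter of iron not bound to transferrin, at 366 ± 141 against 85.1 ± 18.6 CPM (2.05, adjusted p = 0.000168), and *Slc11a1*, a phagosomal metal transporter, from 0.124 ± 0.162 to 1.89 ± 0.603 CPM (3.97, adjusted p = 0.000459). *Trf*, transferrin itself, also passed (2, adjusted p = 0.0154) at low levels of 1.79 ± 1.47 against 0.391 ± 0.218 CPM that overlapped. The endocytic receptor *Lrp2* (-2.1, adjusted p = 7.26e-05), the endosomal ferrireductase *Steap3* (-1.78, adjusted p = 0.000107) and the ferrireductase *Cybrd1* (-3.07, adjusted p = 0.00016) fell. *Cybrd1* was at low levels, 0.19 ± 0.0453 CPM in KO22 against 1.73 ± 0.264 CPM in WT.

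Of 8 storage genes 1 passed both limits, *Scara5*, a ferritin receptor, at 41.6 ± 5.63 against 261 ± 107 CPM in WT (-2.44, adjusted p = 6.64e-05). Of 7 export genes only *Slc40a1* passed, and none of the 9 sensing genes did. Of the sensing genes, 6 were higher and 1 lower by the adjusted p alone, against 26.9% and 26.1% of all genes. *Fbxl5*, the ligase that removes the iron regulatory proteins when iron is present, was the lower one (-0.35, adjusted p = 0.0295). Of 19 mitochondrial genes, *Slc25a37*, the iron carrier mitoferrin, rose from 70.5 ± 1.92 to 259 ± 16.9 CPM (1.88, adjusted p = 1.15e-06) and the chaperone *Hspa9* rose too (1.49, adjusted p = 1.28e-05). Of 17 heme genes, *Hp* (2.88, adjusted p = 0.00126) and *Alad* (1.53, adjusted p = 0.00225) rose and *Abcg2* (-1.92, adjusted p = 1.36e-05) and *Hpx* (-1.59, adjusted p = 0.00276) fell. *Hpx* was at low levels, 0.713 ± 0.243 CPM in KO22 against 2.15 ± 0.241 CPM in WT. *Hmox1*, which breaks down heme, was under the fold limit (0.98, adjusted p = 0.00861) with overlapping groups.

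Among 19 genes known to promote ferroptosis 3 rose in KO22 and none fell past both limits. Besides *Acsl4* these were *Far1*, of ether lipid synthesis (1.26, adjusted p = 7.86e-06), and *Chac1*, which degrades glutathione (1.59, adjusted p = 0.0195), the latter with overlapping groups. Among 24 genes known to restrain it 7 rose and none fell past both limits. By the adjusted p alone 12 of these 24 were higher and 2 lower, and 10 of the 19 promoting genes were higher and 1 lower. Over all genes 26.9% were higher and 26.1% lower by that limit. The cystine importer *Slc7a11* was measured at 181 ± 92.2 against 3.17 ± 1.74 CPM (5.73, adjusted p = 3.48e-08), the quinone reductase *Nqo1* at 36 ± 8.49 against 2.86 ± 0.549 CPM (3.6, adjusted p = 3.42e-07) and glutathione reductase *Gsr* at 71.6 ± 0.743 against 11.3 ± 0.733 CPM (2.65, adjusted p = 3.72e-07). *Gpx4*, the peroxidase that repairs lipid peroxides, did not pass (18.7 ± 3.29 against 22.5 ± 2.17 CPM, log2 fold change -0.27, adjusted p = 0.165).

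In KO26, 3 of 118 list genes (2.54%, against 1.92% of all genes) rose and none fell: *Slc7a11* at 18 ± 6.1 CPM (2.27, adjusted p = 0.000678), *Nqo1* (1.39, adjusted p = 0.00566) and *Cyb5r1*, a reductase that feeds lipid peroxidation (1.3, adjusted p = 0.019). *Slc7a11* was higher in KO22 than in KO26 by 3.46 (adjusted p = 1.14e-06). Between the clones 19 of 118 list genes were higher in KO22 and 9 lower, 23.7% in all, against 18.3% of all genes. In RPE/choroid none of 124 list genes had an adjusted p under 0.05, though their log2 fold changes ran from -0.99 to 2.89. At an unadjusted p under 0.05 there were 9 (7.26%), against 8.3% of all genes. The median log2 fold change of the list genes was 0.04, against 0.01 over all genes.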

How the data were processed

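Bulk RNA-seq was analysed in 9 mRPE and 6 RPE/choroid libraries. The authors trimmed reads with Trim Galore, aligned them to mm39 with STAR, removed genes with low counts and deposited raw counts per gene, which were used here. For RPE/choroid only the labels name these tools, without their roles. The deposited normalized values were not used. The annotation release and the strand setting of the counting are not given in the sources used here, so a gene and its antisense partner cannot be told apart. Groups came from the sample labels. edgeR 4.0.16 in R 4.3.3 (quasi-likelihood, TMM, at least 5 counts in at least 3 libraries, batch as a term in mRPE, Benjamini-Hochberg over all genes) was the main test, with limits of 0.05 and 1.2 on the adjusted p and the absolute log2 fold change, and DESeq2 1.42.0 was an alternative. KO22 was tested over 7 libraries and KO26 over all 9. Levels are CPM on the TMM scale, as mean ± SD. The test was also run on simulated counts without a batch effect, which does not show that it holds for the batch differences of these data. Members and lists were chosen with earlier results of these data known. Named list genes were the up to 3 in each direction with the smallest p past both limits, plus *Slc7a11*, *Gpx4*, *Hmox1*, *Trf*, *Fbxl5* and *Prom1*. Promoter and protein sequences are not used here.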

Additional observations from a re-analysis of the deposited data

Results flagged for a closer look

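In WT mRPE, *Ftl1* stood at 785 CPM in replicate 1, the library of batch 8995, against 448 to 457 CPM in the other WT libraries, a gap of 0.974 of the whole range. It was the only one of the 10 members with such a gap in WT. A gap was flagged when it passed a cutoff that chance passes for about 1 in 20 genes. With 10 genes looked at, 1 flag at that cutoff is not rare. The gap of 0.974 lies past the cutoff, and how often chance gives a gap of this size was not computed. The rate of 1 in 20 also takes the WT libraries as alike, while replicate 1 alone is of batch 8995. In the clones too *Ftl1* was highest in the library of batch 8995, at 1200 CPM in KO22 and 1270 CPM in KO26.

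Between the clones, the test of the difference itself gave a log2 difference of KO22 minus KO26 of 2.4 for *Tfrc*, -3.02 for *Slc40a1*, 1.4 for *Slc11a2* and 1.83 for *Acsl4*.

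Between the batches, the difference of KO22 from WT in batch 8995 minus that in batch 9262 was 1.02 for *Fth1*, 2.09 for *Slc40a1*, 1.28 for *Slc11a2*, 2.05 for *Cp* and -0.48 for *Ireb2* on the log2 scale. Each rests on 1 library a group in batch 8995.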

How the results depend on the processing

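The calls of *Tfrc*, *Slc40a1* and *Acsl4* in KO22 held in all 15 alternatives, with log2 fold changes of 2.98 to 3.4, -4.39 to -3.14 and 1.73 to 1.83. No paired analysis was possible because the labels give library numbers and no replicate numbers shared between groups, so the batch served as the block. Without a fold limit, KO22 against WT had 7 members higher, and 52 list genes higher and 20 lower, KO26 against WT had 6 list genes higher, and KO22 against KO26 had 37 list genes higher and 24 lower, which follows from the limit itself. In KO26 against WT, 5 list genes were higher with DESeq2 and with WT and KO26 libraries alone. With 1 library left out they were 2 to 5 higher and 0 to 1 lower, and in KO22 against KO26 the members higher were 2 to 5 and the list genes lower 7 to 14. Where KO26 was left with 1 library, that library was assumed to vary like the other groups. The cause was not tested.

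*Fth1* in KO26 turned to 0.16 without the batch term and to 0.05 with WT and KO26 libraries alone, and lay between -0.29 and 0.08 with 1 library left out. In KO26 against WT with any 1 library left out, the sign also turned for *Slc40a1* (-1.23 to 0.08), *Cp* (-1.3 to 0.07) and *Aco1* (-0.03 to 0.38), and *Acsl4*, at 0 over all libraries, ran from -0.45 to 0.31. The sign turned likewise between the clones for *Ftl1* (-0.17 to 0.05), and in RPE/choroid for *Fth1* (-0.29 to 0.2), *Slc40a1* (-0.43 to 0.19), *Ncoa4* (-0.04 to 0.22) and *Slc11a2* (-0.31 to 0.02). None of these was called. By the adjusted p alone, *Ftl1*, *Slc11a2* and *Ireb2* in KO22 reached adjusted p values of 0.162, 0.0719 and 0.105 in the least favourable alternative. Leaving the 3 ribosomal RNA genes out of RPE/choroid, chosen after seeing the data, changed no call. With 8 to 27 counts of *Slc40a1* in KO22, depth limits the size of its fall.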
